A study of Mus musculus with 9 samples.

Results

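Ribosome biogenesis and RNA polymerase I genes were followed in 9 RNA-Seq libraries of mouse bone marrow-derived macrophages (BMDMs). The set holds 50 genes named by symbol, out of 53465 genes in the deposited counts, and where a symbol stood on several rows the row with most reads was kept. The BMDMs were grown from the marrow of male wild-type C57BL/6 mice (the J substrain in the study's methods) in medium containing CSF1 at 50 ng/ml. Every group shares this origin and this growth before the treatment. In 3 libraries the cells were left untreated (UNX). In 3 libraries they received medium conditioned by pulmonary artery adventitial fibroblasts of control calves (CO-CM), and in 3 libraries medium conditioned by such fibroblasts from calves made pulmonary hypertensive by hypoxia (PH-CM). The media are bovine, and each kind was pooled from several fibroblast populations, and a replicate is a further round of macrophage culture rather than another calf. The UNX cells received no conditioned medium, so UNX libraries differ from the others in the medium as a whole. The study's methods name serum, and not CSF1, as added to the conditioned media. Whether CSF1 was equal between the groups during the treatment is therefore not known. The labels state a treatment of 16 h in one place and of 24 h in another, and the study's methods give a time between the 2. No age of the mice is given in the sources used here.

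Ribosomes are built in the nucleolus. RNA polymerase I, brought to the ribosomal DNA by factors such as UBTF and RRN3, makes one long precursor rRNA. Small nucleolar ribonucleoproteins (snoRNPs) then guide its chemical modification, box C/D particles for methylation and box H/ACA particles for pseudouridine, while large sets of assembly factors fold and cut it into the small and large subunits. The work takes much of the energy of a growing cell, and MYC is known as an activator of many of these genes. In macrophages it is tied to growth in CSF1. The 50 genes were ordered by these roles: 6 of RNA polymerase I, 3 of the box C/D core, 4 of the box H/ACA core, 4 abundant nucleolar proteins, 17 small subunit factors and 16 large subunit factors.

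Between 62017933 and 84314201 reads were counted per library, and the 50 genes took between 127640 and 345706 of them. Levels are given as CPM, the usual scale of read counts set to one common library total, after TMM adjustment, which corrects for differences in RNA composition between libraries. A gene was called when its Benjamini-Hochberg adjusted p (FDR) over the 11950 genes tested by the edgeR quasi-likelihood test was at most 0.05 and its fold change at least 1.2. The 8 macrophage markers (Lyz2, Csf1r and others) summed to between 11631 and 12475 CPM in UNX, 19077 and 20024 in CO-CM and 21053 and 22760.0 in PH-CM, and 7 of the 8 were called higher in PH-CM and 6 in CO-CM. The 8 granulocyte markers summed to at most 5.04 CPM, with Ly6g at 0 in all libraries. The 1 granulocyte marker tested, S100a8, was at most 0.9997 CPM in UNX and between 2.21 and 2.91 in the treated libraries and was called higher in both media (log2 fold change 1.37 in PH-CM, 1.39 in CO-CM). The 6 dendritic cell markers summed to at most 0.80 CPM and the 6 lymphocyte markers to at most 0.18. The 8 fibroblast markers, among them Col1a1, Col1a2 and Fn1, summed to between 317 and 393 CPM in UNX, 428 and 479.5 in CO-CM and 402 and 514 in PH-CM. Of the 7 tested, 5 were called higher in PH-CM and 4 in CO-CM, and Lum was at most 0.06 CPM. Over all genes tested, 31.3% were called higher in PH-CM and 28% in CO-CM. The part of the macrophage, granulocyte and fibroblast markers in the results was not tested. A gene measured in bulk RNA at a lower level may come from fewer cells that express it or from less of its RNA per cell, and these cannot be told apart here.

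Transcripts of ribosome biogenesis fell in both conditioned media. Summed over the 50 genes, the level was 4368, 3579 and 4019 CPM in UNX replicates 1, 2 and 3, then 2308, 2085 and 2241 in CO-CM and 2234, 2051 and 2138 in PH-CM. Every treated library lay below every UNX library, and the treated groups overlapped. The mean of the PH-CM libraries was 53.7% of the UNX mean, and that of the CO-CM libraries 55.4%.

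**Figure D1:**
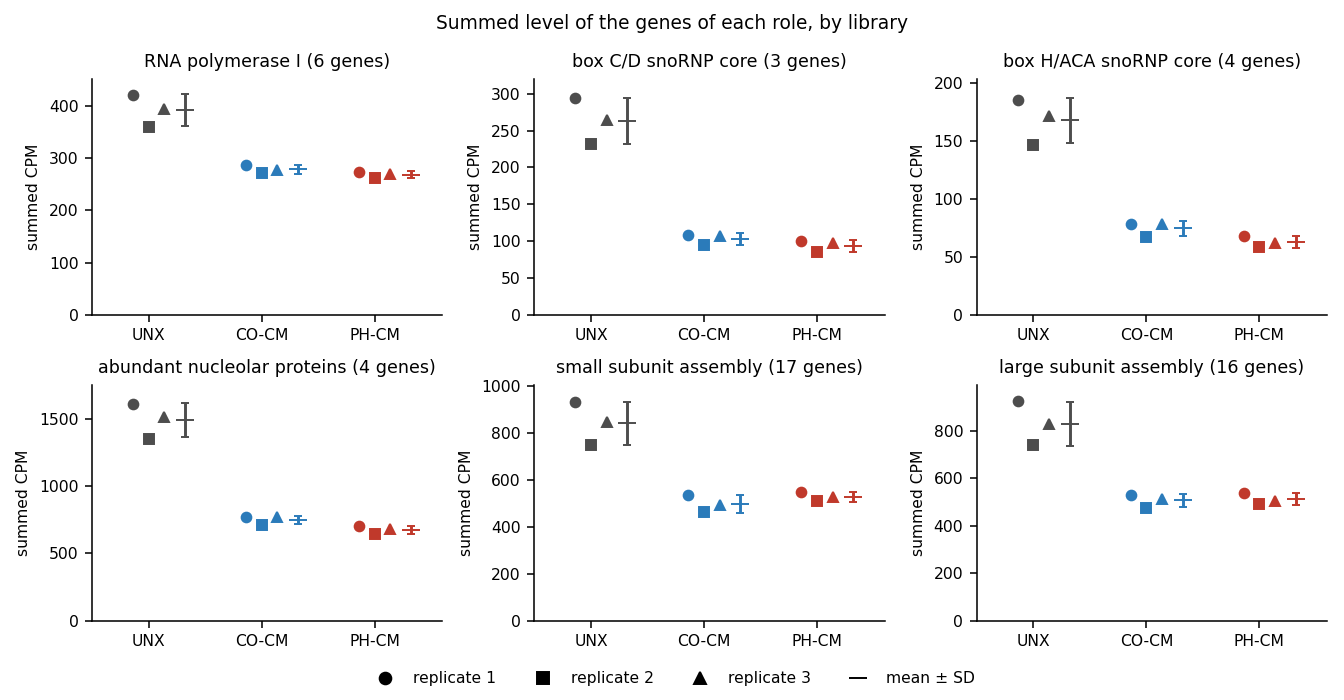
Summed CPM of the genes of each role (vertical axes, from 0) in UNX, CO-CM and PH-CM; symbols mark replicates 1, 2 and 3, and the bars show mean ± SD (n = 3). In each of the 6 panels the UNX libraries lie above all 6 treated libraries.

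For PH-CM against UNX, 45 of the 49 genes tested were called lower and 0 higher, where 31.7% of all genes tested were called lower and 31.3% higher. The median log2 fold change of the 49 genes was -0.94, against 0.01 over all genes. For CO-CM against UNX, 45 were called lower and 0 higher as well, where 28.9% of all genes were called lower and 28% higher, and the median was -0.87 against 0.00. At an unadjusted p under 0.05, 0 genes of the set were higher in either medium, and the edgeR exact test and DESeq2 called 0 higher as well. A fit that paired the libraries by replicate number called 1 higher in PH-CM, Heatr1 (log2 fold change 0.27, FDR 0.0048), and 0 in CO-CM. These comparisons share the UNX libraries, so the counts are not independent of each other. At a fold of at least 2, 21 genes fell in PH-CM and 16 in CO-CM. All treated libraries lay below all UNX libraries for 48 of the 49 genes in PH-CM and 47 in CO-CM. Over all genes tested this held for 38.8% and 36.7%, and the reverse for 38.9% and 35.4%. Lack of overlap was thus common in these data.

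**Figure D2:**
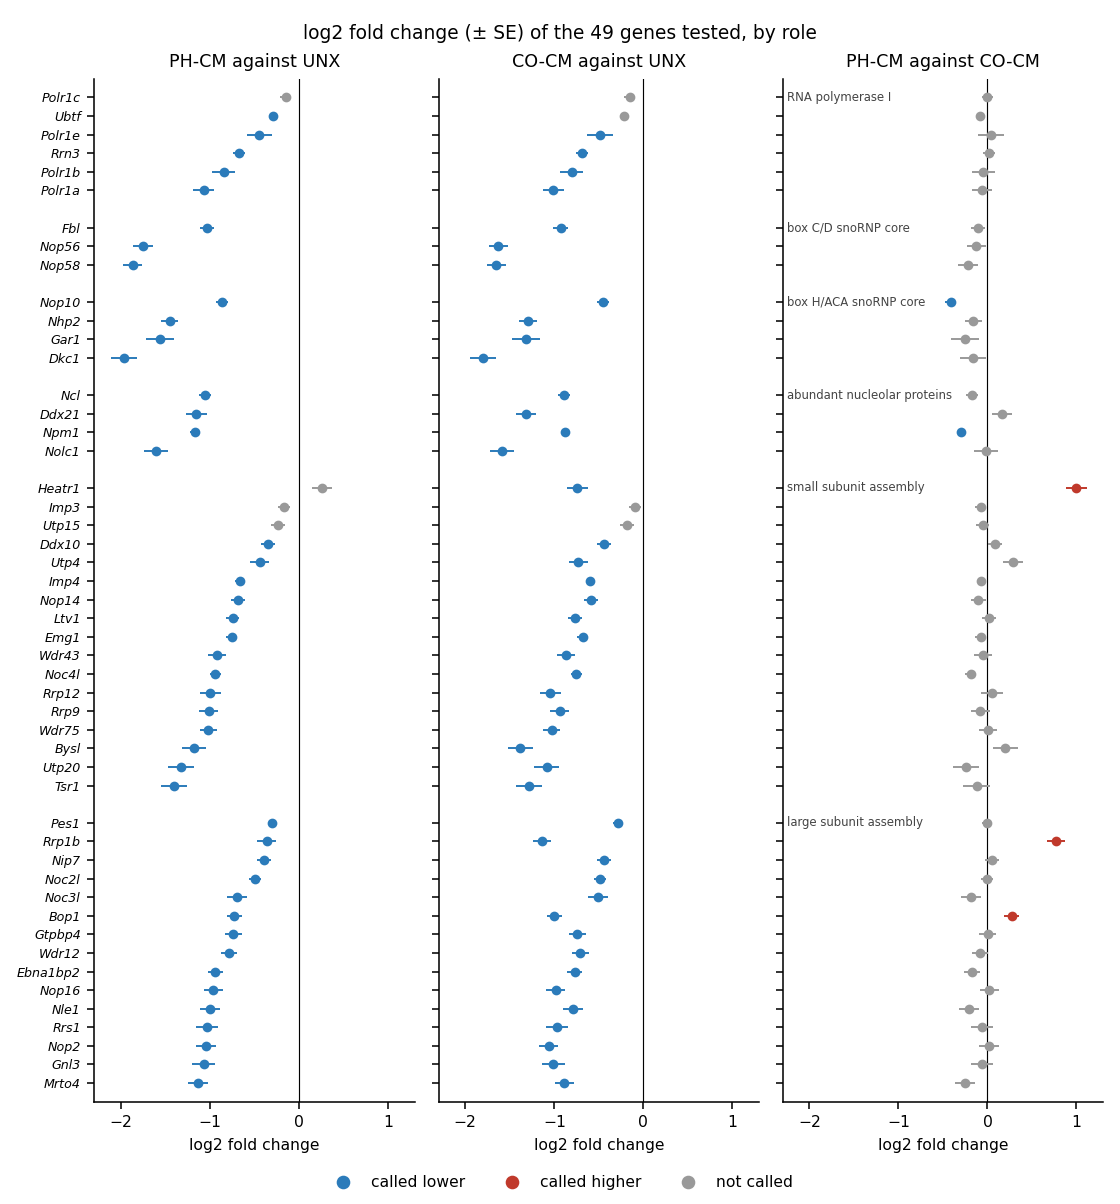
log2 fold change (horizontal axes) with its SE for the 49 genes tested, ordered by role and then by the change in PH-CM, in the 3 comparisons. Blue points were called lower, red higher and grey ones were not called. In the left and middle panels 45 of 49 points are blue, and in the right panel 44 are grey.

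Of the 49 genes, 40 were called lower in both media and showed no call between the media. Heatr1, Rrp1b, Bop1, Nop10 and Npm1 were called between the media and are described below. Ubtf was called lower in PH-CM alone, since its fold in CO-CM was under 1.2. Polr1c, Imp3 and Utp15 were called in no comparison. Wdr74, a large subunit factor, had 24 reads in the 9 libraries together, at most 0.0697 CPM in any of them, and was not tested. No fold is given for it, and why it was so low was not tested.

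Of the 6 RNA polymerase I genes, 5 were called lower in PH-CM and 4 in CO-CM. Their sum in PH-CM was 68.6% of UNX and in CO-CM 71.1%. Ubtf, the most abundant of them, weighed on this sum, and without it the other 5 stood at 58.2% and 59.1%. Polr1a, the largest subunit, which holds the catalytic centre with Polr1b (chromosome 6, 71909053 to 71984935 in GRCm38, plus strand, 39 exon blocks), stood at 112, 78.8 and 92.9 CPM in UNX, 52.1, 43.8 and 44.7 in CO-CM and 47.9, 41.8 and 44.9 in PH-CM. Each treated library was below each UNX library, and the media overlapped. The log2 fold change was -1.07 ± 0.12 (SE; FDR 1.23e-05) in PH-CM and -1.01 ± 0.12 (FDR 2.44e-05) in CO-CM, and -0.06 ± 0.12 (FDR 0.713) between the media.

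Polr1b, its partner in the catalytic core, was at 36.9, 26.4 and 29.0 CPM in UNX, 20.4, 15.7 and 16.8 in CO-CM and 18.2, 15.8 and 17.2 in PH-CM. The treated libraries again lay below the UNX libraries without overlap. It fell by 0.85 ± 0.13 on the log2 scale in PH-CM (FDR 0.000156) and by 0.80 ± 0.13 in CO-CM (FDR 0.000276). Between the media its log2 fold change was -0.05 ± 0.13 (FDR 0.808).

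Rrn3 encodes the initiation factor that makes the polymerase competent to start at the ribosomal DNA promoter. Its levels were 64.8, 58.4 and 66.8 CPM in UNX, 41.8, 36.3 and 39.7 in CO-CM and 41.9, 38.1 and 39.2 in PH-CM. The media gave nearly the same levels, and neither reached any UNX library. On the log2 scale the change was -0.67 ± 0.07 (FDR 7.62e-06) in PH-CM, -0.69 ± 0.07 (FDR 8.49e-06) in CO-CM and 0.02 ± 0.07 (FDR 0.876) between them.

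Ubtf, which binds the ribosomal DNA and keeps it open, was at 177, 168 and 175 CPM in UNX, 148, 149 and 151 in CO-CM and 139, 142 and 143 in PH-CM. The 3 groups did not overlap, but the steps between them were small. Its log2 fold change was -0.29 ± 0.04 in PH-CM (FDR 5.39e-05), -0.21 ± 0.04 in CO-CM (FDR 0.000607, not called for its size) and -0.08 ± 0.04 between the media (FDR 0.138). With upper-quartile factors it was -0.26 in PH-CM and no longer called.

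The other 2 subunits changed little or were scarce. Polr1c, a subunit also found in RNA polymerase III, ranged from 21.6 to 22.2 CPM in UNX and from 18.6 to 21.2 in the treated libraries, and its log2 fold change of -0.15 ± 0.06 in either medium was under the fold required. Polr1e, a subunit that helps to bind the initiation factors, was at 8.78, 6.68 and 8.54 CPM in UNX and between 4.87 and 6.49 in the treated libraries. It was called lower at -0.45 ± 0.14 in PH-CM (FDR 0.015) and -0.48 ± 0.14 in CO-CM (FDR 0.0111). Without PH-CM replicate 2 the first of these was -0.33 (FDR 0.064) and not called.

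**Figure D3:**
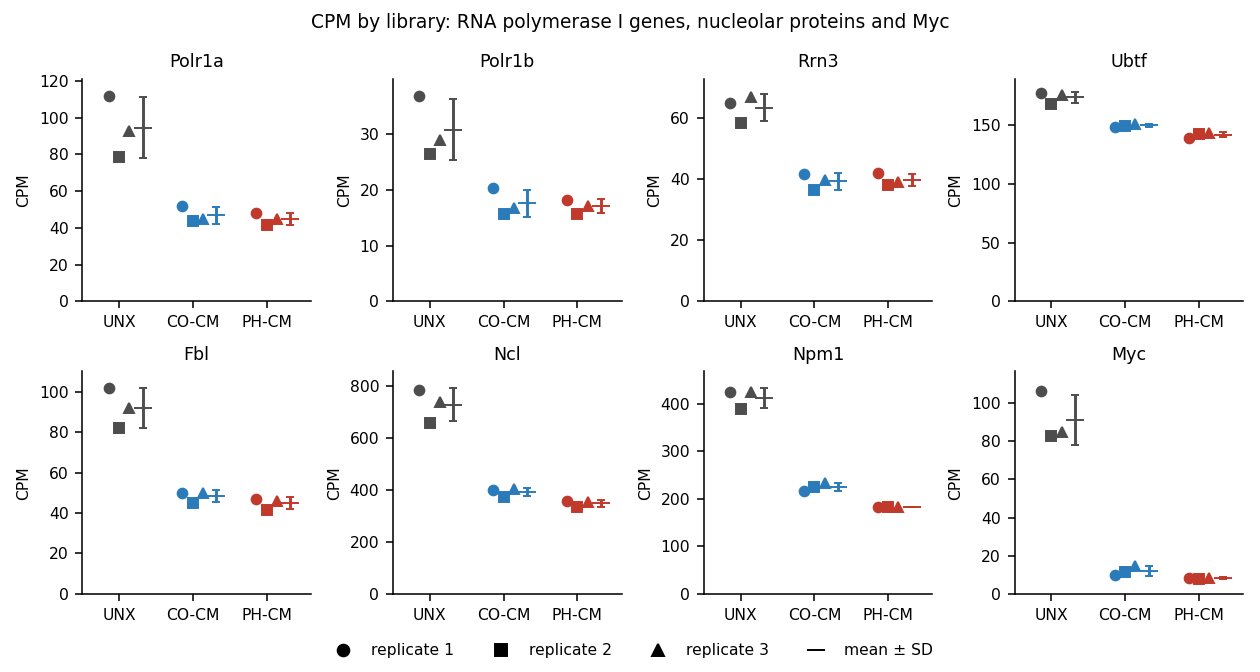
CPM (vertical axes, from 0) of 4 RNA polymerase I genes, of Fbl, Ncl and Npm1, and of Myc in UNX, CO-CM and PH-CM; symbols mark replicates 1, 2 and 3, and the bars show mean ± SD (n = 3). The UNX libraries lie above the treated ones in all 8 panels, as for Myc (82.5 to 106 CPM against 7.81 to 14.8).

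Of the 6 roles, the sums of the snoRNP core genes kept the smallest shares of UNX, and the difference between roles was not tested. The summed level of the 3 box C/D genes in PH-CM was 35.6% of UNX and in CO-CM 39.2%, and that of the 4 box H/ACA genes 37.4% and 44.6%. All 7 were called lower in both media. Nop58, a scaffold protein of the box C/D particle (chromosome 1, 59684971 to 59719044, plus strand), was at 84.1, 65.8 and 75.7 CPM in UNX, 26.5, 20.8 and 24.5 in CO-CM and 22.1, 18.8 and 20.7 in PH-CM. The treated libraries were far below UNX, and the media overlapped. Its log2 fold change was -1.87 ± 0.11 in PH-CM (FDR 1.21e-07), -1.65 ± 0.11 in CO-CM (FDR 4.11e-07) and -0.22 ± 0.11 between the media (FDR 0.14).

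Nop56, the scaffold that pairs with Nop58, changed by -1.75 ± 0.11 in PH-CM and -1.63 ± 0.11 in CO-CM on the log2 scale. Fbl, the methyltransferase of the particle, stood at 102, 82.0 and 92.0 CPM in UNX, 50.0, 44.8 and 49.9 in CO-CM and 46.9, 41.4 and 46.1 in PH-CM. It fell less than its partners, with no overlap between UNX and either medium. On the log2 scale it changed by -1.04 ± 0.08 in PH-CM (FDR 1.2e-06), -0.93 ± 0.08 in CO-CM (FDR 3.64e-06) and -0.11 ± 0.08 between the media (FDR 0.344). Of the 3 near-identical copies of Fbl in the annotation, 2 had 0 reads, and the third is annotated to Tulp4, which held 131731 reads in all against 39326 for Fbl and was called lower in both media (-0.42 in PH-CM, -0.81 in CO-CM). Reads on the stretch it shares with Tulp4 make the Fbl count uncertain. The 4 copies of Nop56 held 159 reads against 33582 for Nop56.

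Dkc1, the pseudouridine synthase of the box H/ACA particle and part of telomerase (chromosome X, 75095854 to 75109777, plus strand), had the largest fall among the 49 genes. Its levels were 48.7, 31.9 and 39.5 CPM in UNX, 12.3, 10.6 and 11.5 in CO-CM and 11.0, 8.90 and 10.7 in PH-CM. No treated library reached the lowest UNX library. The log2 fold change was -1.97 ± 0.14 in PH-CM (FDR 6.21e-07), -1.80 ± 0.14 in CO-CM (FDR 1.62e-06) and -0.17 ± 0.15 between the media (FDR 0.398). Gar1 and Nhp2, its partners in the particle, changed by -1.57 ± 0.16 and -1.46 ± 0.10 in PH-CM and by -1.32 ± 0.15 and -1.30 ± 0.10 in CO-CM.

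Nop10, the smallest of the box H/ACA core proteins (chromosome 2, 112261926 to 112263269, plus strand, 2 exon blocks), was called between the media. It was at 36.5, 33.7 and 36.8 CPM in UNX, 26.0, 24.9 and 27.2 in CO-CM and 21.03, 18.5 and 19.0 in PH-CM. The groups formed 3 separate steps. It fell by 0.87 ± 0.07 on the log2 scale in PH-CM (FDR 8.2e-07) and by 0.45 ± 0.07 in CO-CM (FDR 0.000122), and PH-CM was lower than CO-CM by -0.42 ± 0.07 (FDR 0.00075).

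The abundant nucleolar proteins carried the largest share of reads. Together they summed to 1612, 1355 and 1516 CPM in UNX, 768, 714 and 769 in CO-CM and 703, 645 and 679 in PH-CM, with no overlap between any 2 groups. All 4 were called lower in both media. Per length, Npm1 and Ncl had the highest levels of the 50 genes in UNX, at 159 ± 9.09 and 73.7 ± 7.25 RPKM (mean ± SD, n = 3, reads scaled to exon length and library total, as deposited).

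Ncl, nucleolin, which binds nascent rRNA, was at 786, 659.5 and 740.3 CPM in UNX, 399.8, 374 and 404 in CO-CM and 359, 334 and 353 in PH-CM. The PH-CM libraries lay just below the CO-CM libraries and far below UNX. Its log2 fold change was -1.06 ± 0.07 in PH-CM (FDR 2.06e-07), -0.89 ± 0.07 in CO-CM (FDR 1.07e-06) and -0.17 ± 0.07 between the media (FDR 0.0669).

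Npm1, nucleophosmin, a chaperone of the granular part of the nucleolus (chromosome 11, 33152287 to 33163206, minus strand), stood at 424, 389 and 424 CPM in UNX, 217, 225 and 233 in CO-CM and 184, 183 and 182 in PH-CM. The 3 groups were separate and tight. Npm1 changed on the log2 scale by -1.17 ± 0.05 in PH-CM (FDR 1.04e-08), -0.88 ± 0.05 in CO-CM (FDR 1.22e-07) and -0.30 ± 0.05 between the media (FDR 0.000826). Npm1 has 6 near-identical copies in the annotation, which together held 2838 reads against 175036 for Npm1 itself.

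Nolc1, a scaffold that links snoRNPs to the polymerase, had the largest fall of this group. It went from 136, 101 and 119 CPM in UNX to 45.5, 32.8 and 39.8 in CO-CM and 43.9, 35.4 and 37.6 in PH-CM. The media overlapped and both lay below UNX. Its change on the log2 scale was -1.60 ± 0.14 in PH-CM (FDR 1.83e-06), -1.59 ± 0.14 in CO-CM (FDR 2.74e-06) and -0.01 ± 0.13 between the media (FDR 0.947). Ddx21, an RNA helicase that also acts at RNA polymerase II genes, changed by -1.16 ± 0.12 and -1.32 ± 0.12.

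Of the 17 small subunit factors, 14 were called lower in PH-CM and 15 in CO-CM, with 0 higher in either. Their median log2 fold change was -0.76 in PH-CM and -0.75 in CO-CM. Tsr1, which blocks translation factors from the unfinished small subunit, fell most in PH-CM. It was at 33.5, 23.6 and 27.2 CPM in UNX, 12.9, 10.5 and 11.1 in CO-CM and 12.2, 8.90 and 10.6 in PH-CM. Its log2 fold change was -1.41 ± 0.15 in PH-CM (FDR 8.61e-06), -1.29 ± 0.15 in CO-CM (FDR 2.08e-05) and -0.12 ± 0.15 between the media (FDR 0.555), with overlap between the media alone. Of its exon bases, 32.3% are shared with Srr, a gene called higher in both media (log2 fold change 0.83 and 0.56), and the counting does not tell strands apart.

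Bysl, bystin, an assembly factor of the pre-small subunit, fell most in CO-CM. Its levels were 47.9, 36.3 and 42.4 CPM in UNX, 19.3, 12.9 and 16.3 in CO-CM and 19.9, 17.8 and 18.1 in PH-CM. The media overlapped and both lay below UNX. Bysl changed on the log2 scale by -1.18 ± 0.14 in PH-CM (FDR 2.01e-05) and -1.38 ± 0.14 in CO-CM (FDR 8.55e-06). Between the media it changed by 0.20 ± 0.14 (FDR 0.284). Of its exon bases, 9.37% are shared with Ccnd3 on the opposite strand. Ccnd3 was called lower in both media (-0.89 in PH-CM, -1.21 in CO-CM) and higher in PH-CM than in CO-CM (0.33). Its part in the Bysl result was not tested.

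The first factors to bind the precursor rRNA belong to the UTP-A group, which is also tied to its transcription, and its members were uneven. Wdr43 and Wdr75 changed by -0.92 and -1.02 in PH-CM and by -0.87 and -1.03 in CO-CM. Utp15 changed by -0.24 and -0.18 and was not called. Utp4 changed by -0.44 in PH-CM and -0.73 in CO-CM, both called. Heatr1, of the same group, was called lower in CO-CM and not in PH-CM.

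Among the other small subunit factors, Utp20 (-1.33 in PH-CM, -1.09 in CO-CM), Rrp9 of the U3 particle (-1.02, -0.94) and Rrp12, an export factor (-0.997, -1.04), had the largest falls. Noc4l (-0.94, -0.75), the methyltransferase Emg1 (-0.76, -0.68), Ltv1 (-0.75, -0.77), Nop14 (-0.69, -0.59) and Imp4 (-0.66, -0.60) followed, and the helicase Ddx10 fell by 0.35 and 0.44. Imp3, which binds beside Imp4 on the same precursor, was at -0.17 in PH-CM and -0.09 in CO-CM and was not called.

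All 15 large subunit factors tested were called lower in both media, with median log2 fold changes of -0.79 in PH-CM and -0.79 in CO-CM. Mrto4, which holds the place of the stalk on the pre-large subunit, fell most in PH-CM. It was at 34.0, 27.3 and 33.7 CPM in UNX, 16.5, 15.6 and 19.3 in CO-CM and 13.98, 13.4 and 15.8 in PH-CM. The media overlapped and both lay below UNX. The log2 fold change was -1.14 ± 0.11 in PH-CM (FDR 4.63e-06), -0.89 ± 0.11 in CO-CM (FDR 3.61e-05) and -0.25 ± 0.11 between the media (FDR 0.0955).

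Bop1, Pes1 and Wdr12 form one complex that is needed to cut the precursor of the large subunit, yet their RNAs did not fall by the same amount. Pes1 went from 110.1, 97.1 and 101 CPM in UNX to between 81.1 and 85.1 in the treated libraries. Its log2 fold changes were -0.30 ± 0.05 in PH-CM (FDR 0.000281) and -0.29 ± 0.05 in CO-CM (FDR 0.000425). Without UNX replicate 1 these were -0.26 and -0.25, under the fold required. Wdr12 changed by -0.79 and -0.71 and Bop1 by -0.73 and -0.999. The difference between the 3 genes was not tested.

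The GTPases Gnl3 (nucleostemin) and Gtpbp4 changed by -1.07 and -0.74 in PH-CM and by -1.01 and -0.74 in CO-CM. Nop2, an rRNA methyltransferase (-1.05, -1.06), Rrs1 (-1.03, -0.97), Nle1 (-1.003, -0.79), Nop16 (-0.97, -0.98) and Ebna1bp2 (-0.94, -0.77) fell by about as much. Noc3l and Noc2l changed by -0.70 and -0.50 in PH-CM and by -0.51 and -0.49 in CO-CM, and Nip7 by -0.39 and -0.44. Of the exon bases of Noc2l, 20.9% are shared with Samd11.

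PH-CM against CO-CM compares the pooled medium of fibroblasts from hypertensive calves with the pooled medium of control fibroblasts. The replicates are macrophage cultures and not calves, so the FDR values do not measure the spread between calves. For most of these genes no difference was called. Of the 49 genes, 2 were called lower and 3 higher, where 15% of all genes tested were called lower and 12.2% higher, and the median log2 fold change was -0.06. The summed level in PH-CM was 96.8% of CO-CM. The libraries of the media did not overlap for 6 genes lower in PH-CM and 4 higher. Over all genes tested this held for 26.3% lower and 23.9% higher. Nop10 and Npm1, given above, were lower in PH-CM. Heatr1, Rrp1b and Bop1 were higher.

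**Figure D4:**
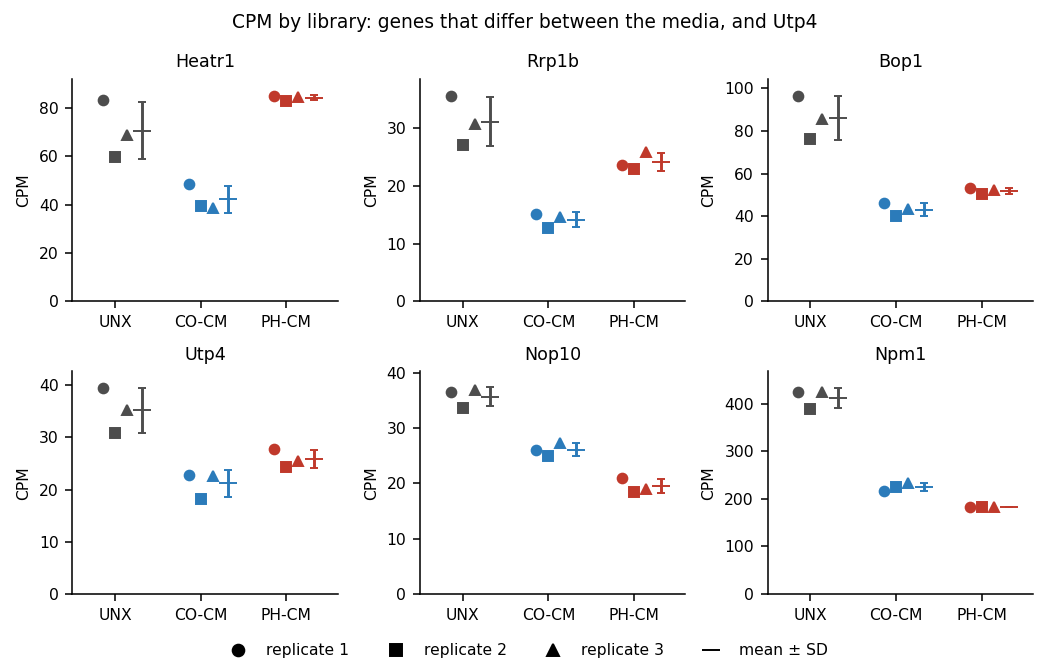
CPM (vertical axes, from 0) of the 5 genes called between the media and of Utp4, in UNX, CO-CM and PH-CM; symbols mark replicates 1, 2 and 3, and the bars show mean ± SD (n = 3). Heatr1 in PH-CM (82.9 to 84.8 CPM) lies level with or above UNX, while Nop10 and Npm1 step down from UNX to CO-CM to PH-CM.

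Heatr1, a large scaffold protein of the UTP-A group (chromosome 13, 12395027 to 12440289, plus strand, 47 exon blocks), had the largest difference between the media. It was at 83.3, 59.8 and 68.5 CPM in UNX, 48.4, 39.3 and 38.7 in CO-CM and 84.8, 82.9 and 84.5 in PH-CM. CO-CM lay below UNX, PH-CM lay above CO-CM in every library, and PH-CM overlapped with UNX. The log2 fold change was 1.00 ± 0.12 between the media (FDR 9.84e-05), -0.74 ± 0.12 in CO-CM (FDR 0.000213) and 0.25 ± 0.11 in PH-CM (FDR 0.0656). In the fit with the replicate block the last of these was 0.27 (FDR 0.0048) and called higher, as it was without UNX replicate 1 (0.38, FDR 0.00445).

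Heatr1 shares 155 exon bases, 1.98% of its exons, with Lgals8 on the opposite strand. Lgals8, a galectin, was called higher in both media (log2 fold change 1.07 in PH-CM and 0.57 in CO-CM) and higher in PH-CM than in CO-CM (0.50, FDR 4.26e-05). Its part in the Heatr1 result was not tested.

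Rrp1b, a large subunit factor that also binds chromatin (chromosome 17, 32036100 to 32062865, plus strand), was at 35.6, 27.2 and 30.7 CPM in UNX, 15.1, 12.7 and 14.7 in CO-CM and 23.7, 22.9 and 25.9 in PH-CM. The groups did not overlap, and PH-CM lay between the others. Its log2 fold change was 0.77 ± 0.10 between the media (FDR 0.000256), -1.14 ± 0.10 in CO-CM (FDR 4.44e-06), the largest fall of a large subunit factor there, and -0.37 ± 0.10 in PH-CM (FDR 0.00734).

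Bop1 (chromosome 15, 76452989 to 76477277, minus strand) was at 96.7, 76.1 and 85.6 CPM in UNX, 46.2, 39.9 and 43.2 in CO-CM and 53.4, 50.5 and 52.1 in PH-CM. The PH-CM libraries were above those of CO-CM by a small margin. The log2 fold change between the media was 0.27 ± 0.08 (FDR 0.0269). It was not called without CO-CM replicate 2 (0.22, FDR 0.0975), CO-CM replicate 3 (0.27, FDR 0.0674), PH-CM replicate 1 (0.26, FDR 0.0673) or PH-CM replicate 3 (0.27, FDR 0.0666).

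Utp4 showed a like step without a call in the reported fit. Its levels were 39.5, 30.8 and 35.2 CPM in UNX, 22.7, 18.2 and 22.7 in CO-CM and 27.7, 24.3 and 25.5 in PH-CM, with no overlap between the media. Between the media its log2 fold change was 0.29 ± 0.11 (FDR 0.0606). It was called in the fit with the replicate block (0.29, FDR 0.00122), by the edgeR exact test (0.29, FDR 0.0186) and by DESeq2 (0.28, FDR 0.042). Fits without the filter, of the 2 groups compared and without UNX replicate 1 or 2 called it as well. Noc4l was lower in PH-CM at -0.19 ± 0.06 (FDR 0.0388), under the fold required.

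A further 80 ribosome biogenesis genes outside the set were read the same way. In PH-CM 57 were called lower (71.2%, against 31.7% of all genes tested) and 1 higher. In CO-CM 58 were called lower (72.5%, against 28.9%) and 2 higher. Between the media 2 were lower and 2 higher, against 15% and 12.2% of all genes tested. The median log2 fold changes of the 80 genes were -0.51, -0.47 and -0.07. Grwd1, a histone-binding assembly factor, had the largest fall (-1.87 in PH-CM, -1.49 in CO-CM), and Nop53, a large subunit factor, was higher (0.33, 0.29).

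The genes for the ribosomal proteins themselves, which the factors above assemble, had another pattern. Of 79 listed and 78 tested, 71 were called lower in PH-CM and 0 higher. In CO-CM 28 were called lower and 1 higher, and in PH-CM against CO-CM 63 lower and 0 higher. Those called lower were 91%, 35.9% and 80.8% of the 78, against 31.7%, 28.9% and 15% of all genes tested. The median log2 fold changes of the ribosomal protein genes were -0.55, -0.19 and -0.35, where the 49 biogenesis genes had -0.94, -0.87 and -0.06. The difference between the lists was not tested.

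**Figure D5:**
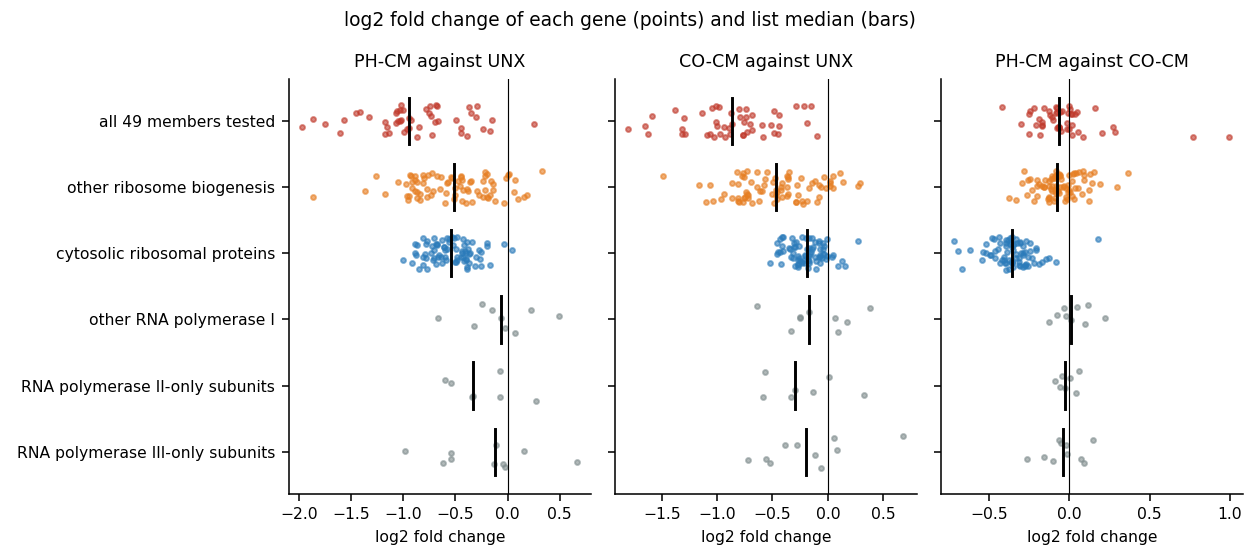
log2 fold change (horizontal axes) of each gene tested in 6 lists, in the 3 comparisons; points are genes, spread vertically at random, and black bars are list medians. Between the media the ribosomal proteins are centred at -0.35 and the 49 biogenesis genes at -0.06.

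Over all genes tested, 31.7% were called lower and 31.3% higher in PH-CM, and 28.9% and 28% in CO-CM. Of the other RNA polymerase I genes, 2 of 9 were called lower and 1 higher in either medium. Taf1d, of the promoter factor SL1, fell (-0.67, -0.64), as did the subunit Polr1d (-0.32, -0.33), and Ttf1, the terminator factor, rose (0.50, 0.38). The subunits of RNA polymerase II that RNA polymerase I lacks gave 4 lower and 1 higher of 7 in either medium, Polr2a being the one that rose (0.27, 0.33). Those particular to RNA polymerase III gave 4 lower and 1 higher of 10 in PH-CM and 5 lower and 1 higher in CO-CM, with Polr3gl higher (0.67, 0.68). Of the 5 subunits shared between polymerases, 3 were lower in either medium. Between the media the edgeR quasi-likelihood test called 0 of these 31 genes, with 4 lower and 2 higher at an unadjusted p under 0.05, the exact test called 1 lower and DESeq2 2 lower.

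Of 15 regulators of growth tested, 4 were called lower and 7 higher in PH-CM, and 5 lower and 7 higher in CO-CM. These are 26.7% and 46.7% in PH-CM and 33.3% and 46.7% in CO-CM. Over all genes tested, 31.7% were called lower and 31.3% higher in PH-CM, and 28.9% and 28% in CO-CM. Myc, which drives ribosome biogenesis, was at 106, 82.5 and 84.9 CPM in UNX, 9.92, 11.7 and 14.8 in CO-CM and 8.44, 7.81 and 8.55 in PH-CM. The 3 groups were separate. Myc changed on the log2 scale by -3.46 ± 0.15 in PH-CM (FDR 1.2e-08), -2.91 ± 0.14 in CO-CM (FDR 5.4e-08) and -0.55 ± 0.14 between the media (FDR 0.012).

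Of the partners and opponents of MYC, Max was not called (0.06, -0.09). The repressors Mxi1 (2.18 in PH-CM, 1.06 in CO-CM), Mxd4 (1.62, 1.85), Mxd1 (0.77, 0.56) and Mnt (0.53, 0.67) were called higher in both media, and Mxd3 lower (-3.96, -2.71). In the mTOR pathway, which raises RNA polymerase I activity, Mtor was not called (0.03, 0.00), Akt1s1 was higher (0.57, 0.52) and Rps6kb1 lower (-0.33, -0.27). Rptor was lower in CO-CM alone (-0.04, -0.38), and Eif4ebp1 was lower in both (-0.29, -0.54). Ddit4, an inhibitor of mTOR, was at 3.76, 4.92 and 4.70 CPM in UNX, 4.79, 4.27 and 5.05 in CO-CM and 13.6, 15.6 and 14.8 in PH-CM, and its log2 fold change was 1.72 in PH-CM, 0.07 in CO-CM (not called) and 1.64 ± 0.11 between the media (FDR 3.13e-06). Maf1, a repressor of RNA polymerase III, was higher in both (0.63, 0.58), Eif4ebp2 was higher in CO-CM alone (0.18, 0.40), and Mycn was too low to be tested.

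All 8 markers of proliferating cells, Mki67, Top2a, Cdk1, Ccnb1, Pcna, Mcm2, Mcm5 and Rrm2, were called lower in both media and lower in PH-CM than in CO-CM. Their summed level was between 2693 and 2944 CPM in UNX, 539.9 and 667 in CO-CM and 318 and 354 in PH-CM. This moved with the biogenesis genes between UNX and the media, and its part in their fall was not tested. From CO-CM to PH-CM the sum of the proliferation markers changed to 56.4% and that of the 50 biogenesis genes to 96.8%, and the difference between the lists was not tested.

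The E-box CACGTG is the sequence that MYC and its partner MAX bind, and it was looked for in the promoters of the set because Myc and these genes fell together. Promoters, from 250 bases before to 50 after the start, were taken from RefSeq on GRCm38.p6 for 45 of the 50 genes. Fbl, Npm1, Rrp12, Bop1 and Rrs1 had no entry. The motif reads the same on both strands. It was present in 10 of the 45 (22.2%), against 8.09% of all 27025 genes with a promoter entry. Those 27025 genes were not limited to the 11950 tested, and the share among the tested genes was not taken. The 10 were Rrn3, Wdr43, Utp4, Utp20, Imp4, Ltv1, Tsr1, Nop2, Nle1 and Pes1. The matches that lie before the start are shown with 12 bases on each side, the motif in capitals, 5′ to 3′ on the strand of the gene, all 3 genes being on the plus strand:
Rrn3, 215 bases before the start, chr16:13780472-13780501: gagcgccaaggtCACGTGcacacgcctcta
Rrn3, 48 bases before the start, chr16:13780639-13780668: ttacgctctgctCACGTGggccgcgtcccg
Imp4, 121 bases before the start, chr1:34439696-34439725: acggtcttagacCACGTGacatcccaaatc
Nop2, 60 bases before the start, chr6:125131811-125131840: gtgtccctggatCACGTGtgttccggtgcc

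In the other 7 genes the motif lay between 2 and 37 bases after the start. The 10 genes with it had a median log2 fold change of -0.84 in PH-CM and -0.78 in CO-CM, and the 34 matched and tested genes without it -0.90 and -0.79. The difference between these medians was not tested. A match is a run of letters and not a measured binding site.

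Within each group, these genes tended to be high or low together in the same library. In UNX, 48 of the 49 genes were above their group mean in replicate 1, 0 in replicate 2 and 30 in replicate 3. In CO-CM these counts were 43, 4 and 34, and in PH-CM 45, 5 and 25. They were not taken over all genes, so the pattern is not shown to be particular to this set. The shift was small beside the effect of the media, at 0.15 and -0.17 on the log2 scale in UNX replicates 1 and 2, and between -0.11 and 0.09 in the treated libraries.

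Over the 9 libraries, the genes most like the mean profile of the set were Lars and Mars, which charge tRNA with leucine and methionine, Gspt1, which ends translation, Adpgk, a glucokinase, and Dctd, which supplies nucleotides, with Pearson's r between 0.997 and 0.998. The libraries fall into 3 groups and share their scaling, so this describes likeness of pattern and carries no test. Within the set, Nolc1 and Wdr43 followed the mean profile most closely (r = 0.998 and 0.997), and Heatr1 least (r = 0.28), followed by Imp3 (0.66), Rrp1b (0.74) and Polr1c (0.75).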

How the data were processed

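RNA-Seq of 9 BMDM libraries was used, 3 each UNX, CO-CM and PH-CM, grouped and numbered by their titles. Per the labels, total RNA was made into libraries with a NuGen mRNA kit and sequenced in pairs. Reads were trimmed (AfterQC), mapped to GRCm38 (STAR) and assigned to genes by featureCounts 1.6.2 by the authors, and the deposited counts are raw reads per gene. Between 81.4% and 83.8% of counts under 20 were even numbers, as arises when mates are counted singly. The authors also deposited RPKM values, used here only for levels per length and as an alternative scale of the summed level. Their tables of fold changes and p-values were not used.

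The 11950 genes that exceeded a CPM of 1 in 3 or more libraries were scaled by TMM and fitted in edgeR 4.0.16 (R 4.3.3) by quasi-likelihood, 1 mean per group, with Benjamini-Hochberg FDR over all genes tested. Separate cultures are described by the study, but p-values measure the spread between these 9 libraries. An exact test on the ranks of 3 against 3 libraries, unlike the edgeR exact test, cannot go below p = 0.1. Single values were therefore not tested by rank. The SE is the log2 fold change divided by the root of the F statistic. On simulated counts with 200 changed genes, 167 were found for PH-CM against UNX (6 false calls) and 168 for CO-CM against UNX (10). For PH-CM against CO-CM 163 were found (7), and 11791, 11801 and 11786 genes were tested. The simulation changed few genes, gave all genes the same dispersion and had no replicate effect. These data differ in that, so its false calls do not give the rate in them.

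Replicate numbers are shared by the groups. Deviations from group means correlated in all 9 same-numbered pairs (r from 0.276 to 0.484 across genes), which meets the rule set for pairing by number. The reported fit has no block, since the study names no covariate, and its FDR values make no use of this pairing. A fit with the replicate block was an alternative. Libraries of a group differed by more than sampling noise (chi-square per gene at least 10.6). The other alternatives were the edgeR exact test, DESeq2 1.42.0 (test or size factors), upper-quartile factors, library size alone, no filter, filterByExpr, fits of the 2 groups compared, fold thresholds, counts divided by 2, and each library left out. Riok2 was not analysed here.

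The genes of the set, the other lists and the rule for named genes were chosen with earlier results of these data known. Each gene of the set is named under its role. Full statistics are given for Polr1a, Polr1b, Rrn3, Ubtf, Fbl, Ncl and Npm1, and per role for the called gene with the largest rise or fall among those with no overlap between groups. Positions and shared exons come from GENCODE M21, where 22 genes of the set share exon bases with another gene.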

Additional observations from a re-analysis of the deposited data

How the results depend on the processing

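Among 21 alternatives, no called gene changed direction. With a fold of at least 2, 21 genes were lower in PH-CM against UNX and 16 in CO-CM against UNX, and 0 were called higher or lower between the media. The number called higher in PH-CM against UNX was 1 with upper-quartile factors, 1 with the replicate block and between 0 and 1 with a library left out, and the gene was Heatr1 each time. With the replicate block, pairing the libraries by number, the other counts stayed within 1.5 times. Of 147 values of single genes, those near the fold of 1.2 or the FDR of 0.05 changed call: Ubtf in CO-CM was called with library size alone, Pes1 in CO-CM and Bop1 between the media (0.23) were lost with upper-quartile factors, Utp15 was called in PH-CM under 5 alternatives besides the fold, and Nop58 was called lower between the media without CO-CM replicate 2 (-0.31, FDR 0.0494). Utp4 was called higher between the media under the several alternatives named above. The causes were not tested. The PH-CM sum was 51.6% of UNX by library size and 51.9% by RPKM. Leaving out 1 library gave between 44 and 46 genes lower in PH-CM, between 44 and 46 in CO-CM, and between the media 2 to 3 lower and 2 to 4 higher. The spread between 3 cultures sets the precision.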
